A study of Mus musculus with 11 samples.

Results

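The p53 pathway was read gene by gene in 11 cell lines grown ex vivo from OvTrpMyc mice, as counts of polyadenylated RNA per gene. The set held 30 of the 28284 genes in the table: Trp53 with its regulators and feedback targets (4 genes), arrest targets (5), death targets (13), and repair and metabolism targets (8). The genes were listed by name, with no threshold on their values, and all 30 were found and passed the filter on low counts in both comparisons. OvTrpMyc mice (genotype Ovgp1-Trp53-R270H-Myc) carry 1 allele in which coding sequences for mutant p53 and Myc, driven by the Ovgp1 promoter of the fallopian tube epithelium, were placed in the Trp53 locus, so that every group compared here shared the transgene and the disrupted locus, and no wild-type line was analysed here. The lines came from 7 mice that had reached euthanasia criteria, whose ages are not given per line in the sources used here. There were 7 lines from an ovary removed with its fallopian tube, of which 5 came from the right side (ROV; mice F318, F319, F326, F339, and F364) and 2 from the left (LOV; F318 and F364), 2 lines from a uterus (F319 and F333), 1 from a splenic tumor (F326), and 1 from a peritoneal tumor (F361). Each line was an untreated, dividing culture in the same medium and was sequenced once.

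p53 is a transcription factor that is held low by the ubiquitin ligase Mdm2, itself a p53 target, and by the related Mdm4. When DNA is damaged or an oncogene is active, p53 accumulates and switches on genes that halt the cell cycle, repair DNA, limit oxidative damage, or start apoptosis. Missense mutations of the DNA-binding domain, such as R270H (the mouse counterpart of human R273H), impair binding to these genes and are typical of high-grade serous ovarian and uterine serous carcinoma. The binding element of p53 is built from paired copies of a 10-base motif, the p53 half-site.

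The codon that the transgene alters lies in exon 8 of 11 of the transcript Trp53-203 (chr11:69589607-69589609 on GRCm38), within the DNA-binding domain. It is shown in capitals in the reference coding sequence, chr11:69589592-69589624 on the plus strand. Counts per gene do not separate this codon from its mutant form, so reads of an endogenous and of a transgenic allele would both be counted as Trp53 and cannot be told apart. By the study's genotyping, the wild-type allele was lost in the lines. For the peritoneal tumor line, the study's methods state that the mutant base was not seen among its reads, although reads mapped to this codon. How this goes with loss of the wild-type allele in that line cannot be told from counts per gene.
Trp53 codon 270: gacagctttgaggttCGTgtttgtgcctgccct

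RefSeq promoter windows on GRCm38.p6 (250 bases before to 50 after a start) were matched to 21 of the 30 members, and 9 of the 21 (42.9%) held a p53 half-site on either strand, against 9.55% of all 27025 genes with a window. The 9 were Trp53, Mdm2, Ccng1, Cdkn1a, Bax, Aen, Ei24, Sesn1, and Polk. Stretches of 30 bases around the motif, with the half-site in capitals, are shown for the feedback genes and for Sesn1 and Bax, whose levels are described next to them. A match is a description of these letters only. The stretches lie at chr10:117710925-117710954 (Mdm2, minus strand), chr11:40755452-40755481 (Ccng1, minus strand), chr11:69580274-69580303 (Trp53, plus strand), chr10:41887256-41887285 (Sesn1, plus strand), and chr7:45467080-45467109 (Bax, minus strand).
Mdm2: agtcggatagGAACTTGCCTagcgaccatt
Ccng1: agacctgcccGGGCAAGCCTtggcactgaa
Trp53: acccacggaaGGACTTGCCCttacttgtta
Sesn1: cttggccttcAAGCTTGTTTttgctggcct
Bax: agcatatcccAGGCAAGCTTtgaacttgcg

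Cdkn1a, whose level varied widely among the lines, was the member with 2 motifs in 1 window, which 0.359% of all 32851 windows had. The 250 bases before its upstream RefSeq start, chr17:29090729-29090978 on the plus strand, carry both half-sites in capitals.
Cdkn1a: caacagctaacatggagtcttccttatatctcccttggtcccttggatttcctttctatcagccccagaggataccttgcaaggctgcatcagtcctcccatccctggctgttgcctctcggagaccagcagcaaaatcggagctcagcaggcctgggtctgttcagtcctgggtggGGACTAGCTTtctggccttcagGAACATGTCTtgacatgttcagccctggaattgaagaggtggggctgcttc

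Library totals ranged from 13580525 to 27044598 counts, and levels are given as CPM, counts per 1000000 counts of the library total, of which 3 counts make 0.111 to 0.221. The libraries were taken as 2 sets by the number in their labels. The labels give a running number and no boundary, which was chosen from the counts of these data. Skeletal muscle fiber genes (39 of 40 listed were found, and 38 or 39 were above 3 counts in every library of the first set) took 8.56 to 16.5% of the counts in libraries 1 to 7 and 0.174 to 1.37% in libraries 8 to 11, where 36 to 38 were above 3 counts. The 4 Y-linked genes summed to 128 to 174 CPM in the first set and 1.75 to 19.2 CPM in the second, although an ovary or a uterus carries no Y chromosome. Libraries 1 to 7 are, in order, F364 ROV, the F326 splenic tumor, F364 LOV, F326 ROV, the F361 peritoneal tumor, F319 ROV, and F318 ROV. Libraries 8 to 11 are F339 ROV, F318 LOV, the F319 uterus line, and the F333 uterus line. This split is not a condition of the study. Of 8 epithelial and Müllerian markers, 4 to 8 were above 3 counts per line, and their sum was 8.98 to 224 CPM in the first set and 4.13 to 24.2 CPM in the second. Pax8 was at 0 to 7 counts in every line but F319 ROV (68 counts), Krt8 at 52.7 CPM in F319 ROV and at 0 to 0.663 CPM elsewhere, and Epcam at 0 to 54 counts, whereas Wt1 was at 65.6 to 72.7 CPM in 3 right ovary lines (F319, F326, and F364) and Ovgp1 at 15 to 103 counts in every line. The 7 mesenchymal markers, all above 3 counts in every line, had sums of 1349 to 15635 CPM in the first set and 19882 to 35395 CPM in the second, without overlap, and Vim was at 214 to 1280 against 2179 to 3504 CPM. The 5 leukocyte markers had sums of 4.82 to 9.999 and 1.02 to 5.77 CPM, respectively. Values are therefore given for the library sets apart, in the order above, for the members described line by line. In bulk RNA, fewer cells of a type and less RNA per cell cannot be told apart.

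**Figure D1:**
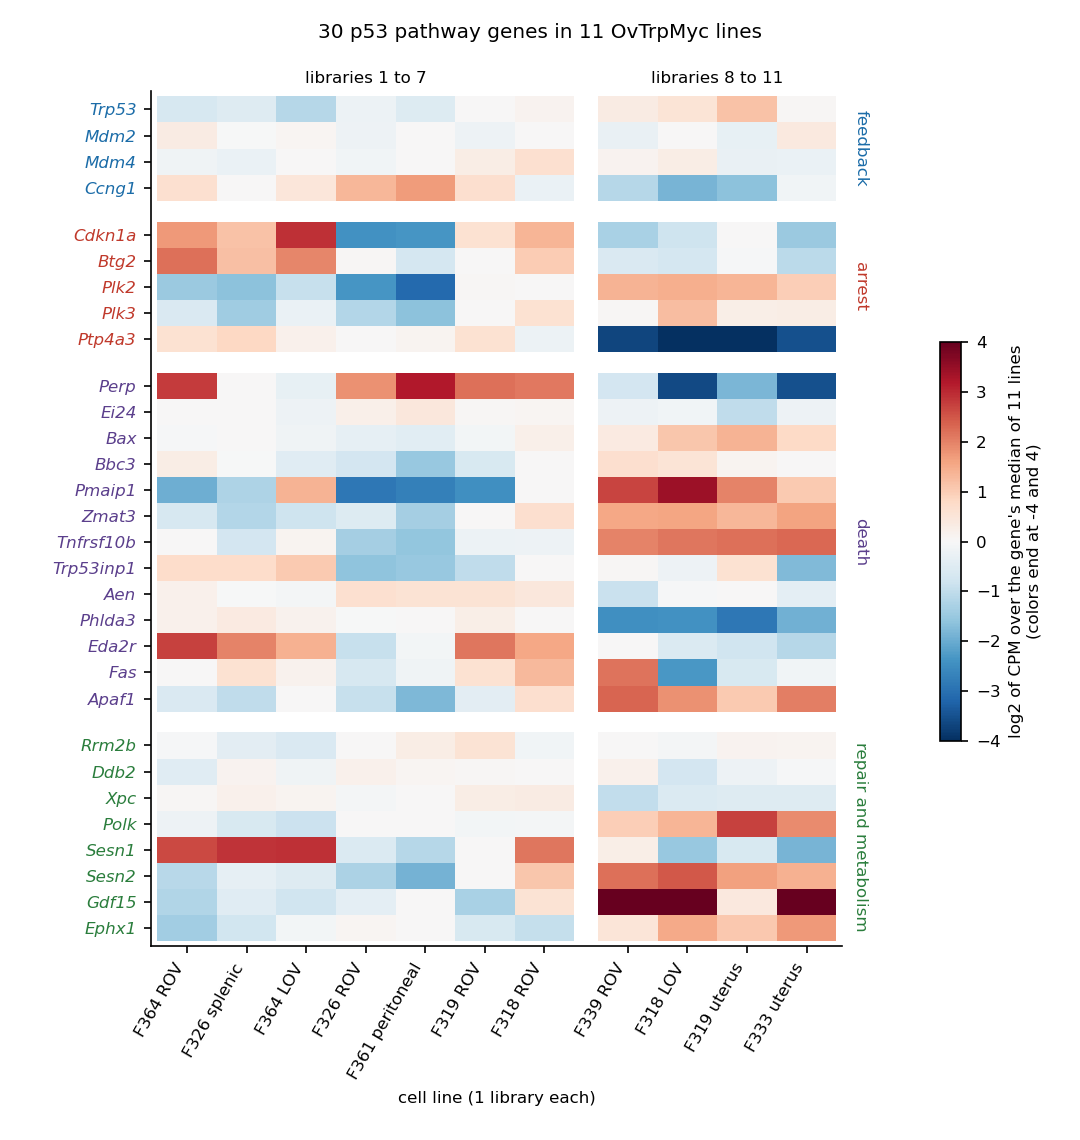
Level of each of the 30 members (rows, by role) in each line (columns), as the log2 of CPM over the gene's median of 11 lines, with levels under 3 counts set to 3 counts. Ptp4a3 and Phlda3 are low in all of libraries 8 to 11, Cdkn1a is low in F326 ROV and F361, and Mdm2 is close to its median throughout.

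Trp53 mRNA was present in every line. It was at 14.6, 16.1, 10.4, 19.5, 15.9, 23.1, and 25.7 CPM in libraries 1 to 7 and at 29.3, 33.9, 52.0, and 24.0 CPM in libraries 8 to 11, of which the last 2 are the uterus lines. The lowest level was in F364 LOV (95% Wilson interval 8.91 to 12.1, counting error only) and the highest in F319 uterus (49.4 to 54.8), a 5.01-fold range. With the muscle fiber genes left out of the total the range was 4.28-fold, and with TMM-scaled totals it was 3.44-fold. F333 uterus lay within the range of libraries 1 to 7, so the sets overlapped. F361, the line without the mutant base among its reads, was at 15.9 CPM (13.9 to 18.2) and above F364 LOV and F364 ROV only.

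Mdm2 had the narrowest range of the 30 members in CPM of the library total over the 11 lines. Its level was 109, 85.6, 91.4, 74.6, 88.1, 74.6, and 87.0 CPM in libraries 1 to 7 and 70.6, 86.3, 68.0, and 114 CPM in libraries 8 to 11. Both extremes were uterus lines, F319 (68.0) and F333 (114), and the 1.68-fold range was at the percentile 1.15 of the ranges of the 15954 genes tested. With TMM-scaled totals it was 2.24-fold (percentile 10.3) and no longer the narrowest of the members. Phlda3 was narrower within libraries 1 to 7 (1.30-fold against 1.46-fold) and Rrm2b within libraries 8 to 11 (1.15-fold against 1.68-fold). Another member was also narrower when F318 ROV, F318 LOV, or F319 uterus was left out, and with 1 CPM added. Mdm4, which binds the p53 transactivation domain, was at 41.1 to 76.9 CPM in the first set and 40.8 to 61.4 CPM in the second.

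Ccng1, the cyclin G1 gene and a feedback target that recruits a phosphatase to Mdm2, varied most among the feedback genes. It was at 354, 229, 320.3, 573, 752, 368, and 189 CPM in libraries 1 to 7 and at 103, 63.7, 72.7, and 206 CPM in libraries 8 to 11. F361 and F326 ROV were the highest lines, F318 LOV was the lowest, and the sets overlapped only through F333 uterus (206) and F318 ROV (189). Per kilobase of annotated exon, the median level of Ccng1 over the lines (65.2 RPKM) was higher than that of Mdm2 (17.0), Trp53 (5.71), and Mdm4 (3.35).

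All 5 arrest targets exceeded a 4-fold range over the 11 lines, as did 66.9% of the genes tested. Cdkn1a, which encodes the cyclin-dependent kinase inhibitor p21, was at 291, 196, 664, 16.3, 17.0, 134, and 227 CPM in libraries 1 to 7 and at 35.6, 49.7, 87.7, and 31.6 CPM in libraries 8 to 11. F364 LOV was the highest line (95% Wilson interval 651 to 677), and F326 ROV (14.4 to 18.5) and F361 (14.95 to 19.3) were the lowest, with overlapping intervals. Both extremes were in libraries 1 to 7, where the 40.8-fold range was at the percentile 98 of the genes' ranges. Over all 11 lines the percentile was 86.4, and without F364 LOV the range was 17.8-fold. This width was known when the genes were listed, so it is a description.

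Ptp4a3, a tyrosine phosphatase gene, was at 2454, 2843, 1855, 1597, 1706, 2413, and 1359 CPM in libraries 1 to 7 and at 125, 47.2, 101, and 139 CPM in libraries 8 to 11. The sets did not overlap, and within each the range was 2.09-fold and 2.94-fold, against 60.3-fold over all lines. Plk2, a polo-like kinase gene of the centriole cycle, moved the other way. It was at 44.5, 40.4, 65.9, 24.3, 14.6, 131, and 126 CPM in libraries 1 to 7 and at 327, 343, 323, and 251 CPM in libraries 8 to 11, again without overlap.

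Plk3, a stress-responsive kinase gene, had the narrowest range of the arrest targets (7.39-fold). Its level was 7.10, 4.05, 8.99, 4.81, 3.46, 10.9, and 16.4 CPM in libraries 1 to 7 and 11.1, 25.6, 13.2, and 13.2 CPM in libraries 8 to 11. Its exons overlap those of Tctex1d4 on the other strand, and the strand setting of the counting is not given in the sources used here. Btg2, an antiproliferative gene, was at 23.2 to 171 CPM in the first set, highest in F364 ROV, and at 17.6 to 36.0 CPM in the second.

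Among the death targets, Phlda3, whose product binds phosphoinositides in competition with Akt, had the highest level per exon length of the 30 members in each of libraries 1 to 7 (329 to 429 RPKM) and in F333 uterus (88.8 RPKM). In F339 ROV, F318 LOV, and F319 uterus Plk2 was higher (71.9 to 76.4 against 45.2 to 62.4 RPKM). It was at 607, 668, 595, 513, 523, 623, and 523 CPM in libraries 1 to 7 and at 94.6, 97.3, 70.4, and 138 CPM in libraries 8 to 11. Within libraries 1 to 7 it varied 1.30-fold, at the percentile 0.997 of the genes' ranges, and every line there was above every line of the other set. Tnfrsf10b, the TRAIL receptor gene, was the mirror image, with 8.18, 4.87, 8.86, 3.20, 2.72, 6.94, and 7.14 CPM in libraries 1 to 7 and 32.2, 35.7, 37.3, and 40.1 CPM in libraries 8 to 11.

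Perp and Pmaip1 were the members that fell under 3 counts. Perp, a membrane protein gene of desmosomes and apoptosis, was at 10.9, 1.58, 1.27, 5.61, 14.5, 7.25, and 6.85 CPM in libraries 1 to 7 and at 0.941, 0, 0.444, and 0 CPM in libraries 8 to 11. With counts of 0 set to 3 counts (0.131 CPM in F318 LOV and 0.139 CPM in F333 uterus), F361 was 111-fold above the lowest line. Pmaip1, which encodes the BH3-only protein Noxa, was at 0.380, 0.633, 3.92, 0, 0, 0.269, and 1.48 CPM in libraries 1 to 7 and at 9.57, 15.9, 5.84, and 3.06 CPM in libraries 8 to 11. It was at 0 counts in F326 ROV and F361. With these set to 3 counts (0.200 and 0.221 CPM), F318 LOV was 79.3-fold above the lowest line.

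Ei24, an endoplasmic reticulum protein gene, had the narrowest range of the death targets. Its level was 64.8, 65.3, 56.3, 77.0, 89.3, 66.5, and 68.0 CPM in libraries 1 to 7 and 56.2, 58.7, 32.0, and 56.3 CPM in libraries 8 to 11, so F319 uterus stood apart at the low end. The exons of Ei24 overlap the listed Gm26787 on the other strand. Bax, the pore-forming protein of the mitochondrial pathway, ranged from 16.6 to 26.8 CPM in libraries 1 to 7 and from 28.9 to 59.4 CPM in libraries 8 to 11. Bbc3, which encodes Puma, was at 3.46 to 12.2 and 9.89 to 15.8 CPM in the sets, which overlapped. Zmat3, an RNA-binding protein gene, and Apaf1, the apoptosome scaffold, were each higher in all of libraries 8 to 11, at 34.8 to 42.2 against 5.45 to 22.0 CPM and at 25.7 to 62.8 against 3.61 to 20.1 CPM. Fas, the death receptor gene, spanned its whole 22.9-fold range in libraries 8 to 11, from 1.57 (F318 LOV) to 35.9 CPM (F339 ROV). Eda2r, a receptor gene of the TNF family, was at 5.88 to 73.5 CPM in the first set and 5.01 to 11.1 CPM in the second. Trp53inp1, an autophagy and stress gene, was at 7.75 to 48.8 and 6.92 to 36.5 CPM, and Aen, a nuclease gene, at 57.8 to 94.4 and 33.1 to 61.2 CPM.

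Gdf15, a secreted stress cytokine gene, had the widest range of the members whose lowest level was above 3 counts. It was at 0.380, 0.633, 0.506, 0.668, 0.884, 0.358, and 1.31 CPM in libraries 1 to 7 and at 22.5, 41.9, 1.18, and 84.7 CPM in libraries 8 to 11. F319 uterus was the exception of the second set and lay among libraries 1 to 7. The lowest line, F319 ROV, had 8 counts, so the 236-fold range rests on a small count. Ddb2, a damage sensor of nucleotide excision repair, had the narrowest range of the repair and metabolism targets (1.92-fold), at 2.03, 3.16, 2.53, 3.27, 3.02, 2.96, and 2.85 CPM in libraries 1 to 7 and 3.25, 1.70, 2.48, and 2.74 CPM in libraries 8 to 11. Its exons overlap those of Acp2 on the other strand.

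Sesn1 and Sesn2, which encode stress proteins that restrain mTORC1, differed in their pattern. Sesn1 was at 360.6, 432, 443, 39.4, 26.3, 58.3, and 260.0 CPM in libraries 1 to 7 and at 70.1, 20.4, 37.6, and 16.1 CPM in libraries 8 to 11. Its 4 high lines were F364 LOV, F326 splenic tumor, F364 ROV, and F318 ROV, and all other lines were at 70.1 CPM or less. Sesn2 ranged from 5.45 to 43.7 CPM in libraries 1 to 7 and from 54.2 to 113 CPM in libraries 8 to 11. Xpc, the other damage sensor, was at 31.3 to 41.1 CPM in the first set and 16.4 to 23.1 CPM in the second, without overlap. Polk, a translesion polymerase gene, and Ephx1, the microsomal epoxide hydrolase gene, were higher in all of libraries 8 to 11, at 17.3 to 58.8 against 4.87 to 9.01 CPM and at 36.1 to 84.9 against 9.58 to 26.7 CPM. Ephx1 shares exon sequence with the listed Gm36961 on the same strand. Rrm2b, the p53-inducible ribonucleotide reductase subunit, was at 15.9 to 35.8 CPM in the first set and 22.9 to 26.3 CPM in the second.

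**Figure D2:**
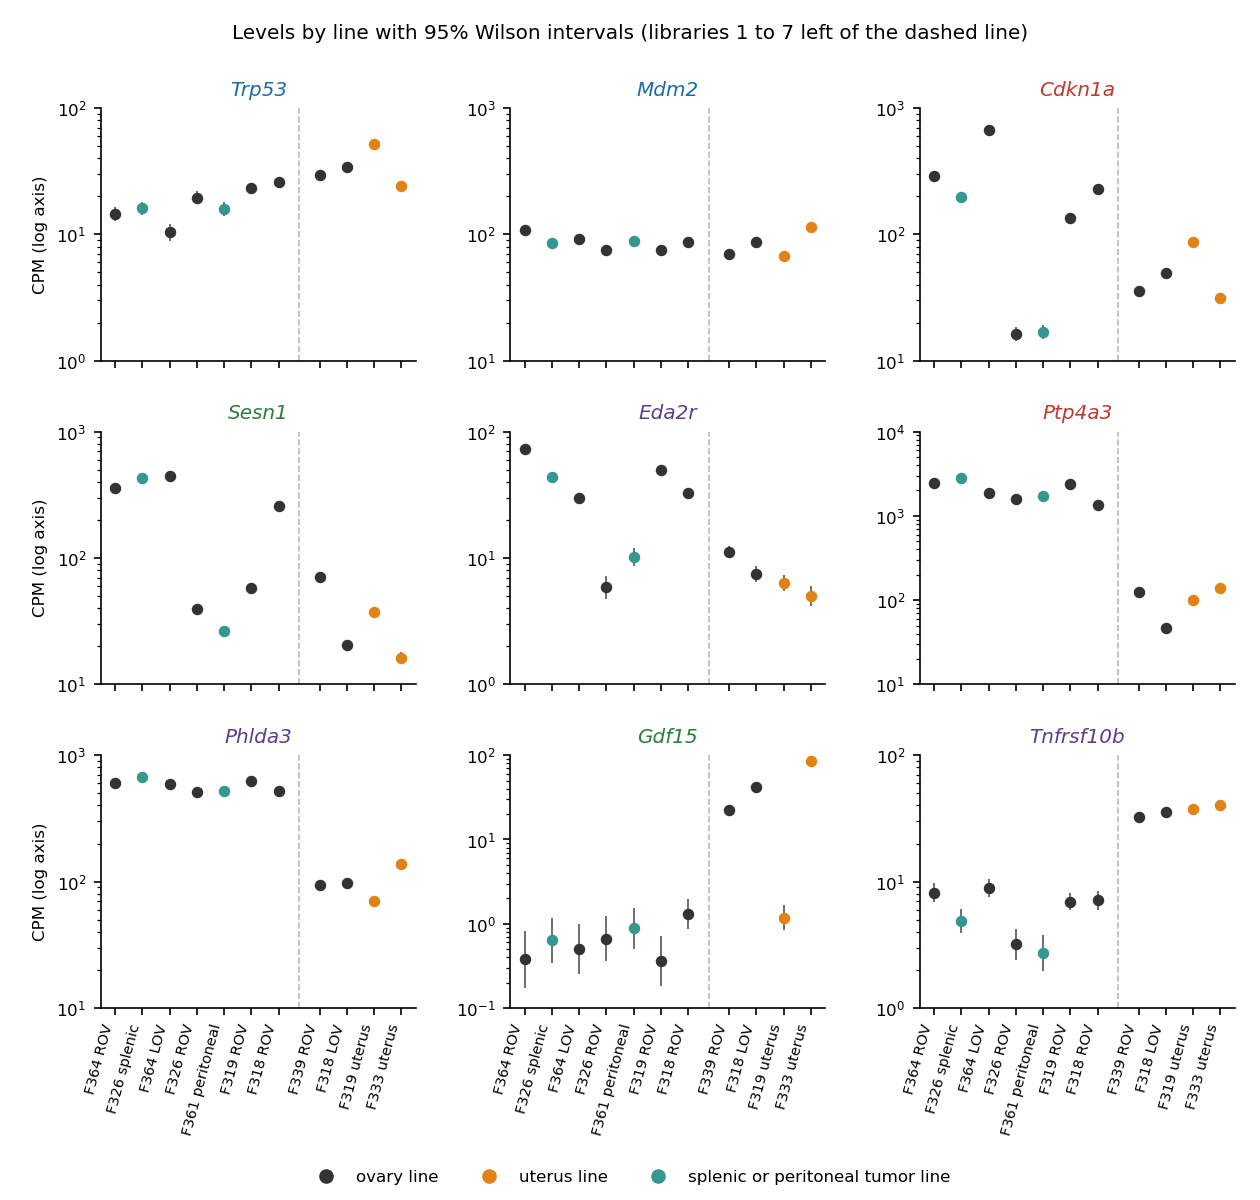
CPM on a log axis for 9 members in each line, with 95% Wilson intervals that cover counting error only. Cdkn1a spans 16.3 to 664 CPM to the left of the dashed line, Mdm2 stays between 68.0 and 114 CPM, and Ptp4a3, Phlda3, and Tnfrsf10b separate the library sets.

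Over the 11 lines, 22 of 30 members had a highest CPM over 4 times the lowest, against 66.9% of the genes tested. Within libraries 1 to 7 this held for 12 members, against 33.7%, and within libraries 8 to 11 for 6 members, against 20.96%. By role, the members over 4-fold within libraries 1 to 7 were 0 of 4 feedback genes, 4 of 5 arrest targets, 6 of 13 death targets, and 2 of 8 repair and metabolism targets. The median member range was 9.58-fold over all lines and 3.60-fold within libraries 1 to 7, beside a median over all genes of 6.30-fold and 2.85-fold.

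**Figure D3:**
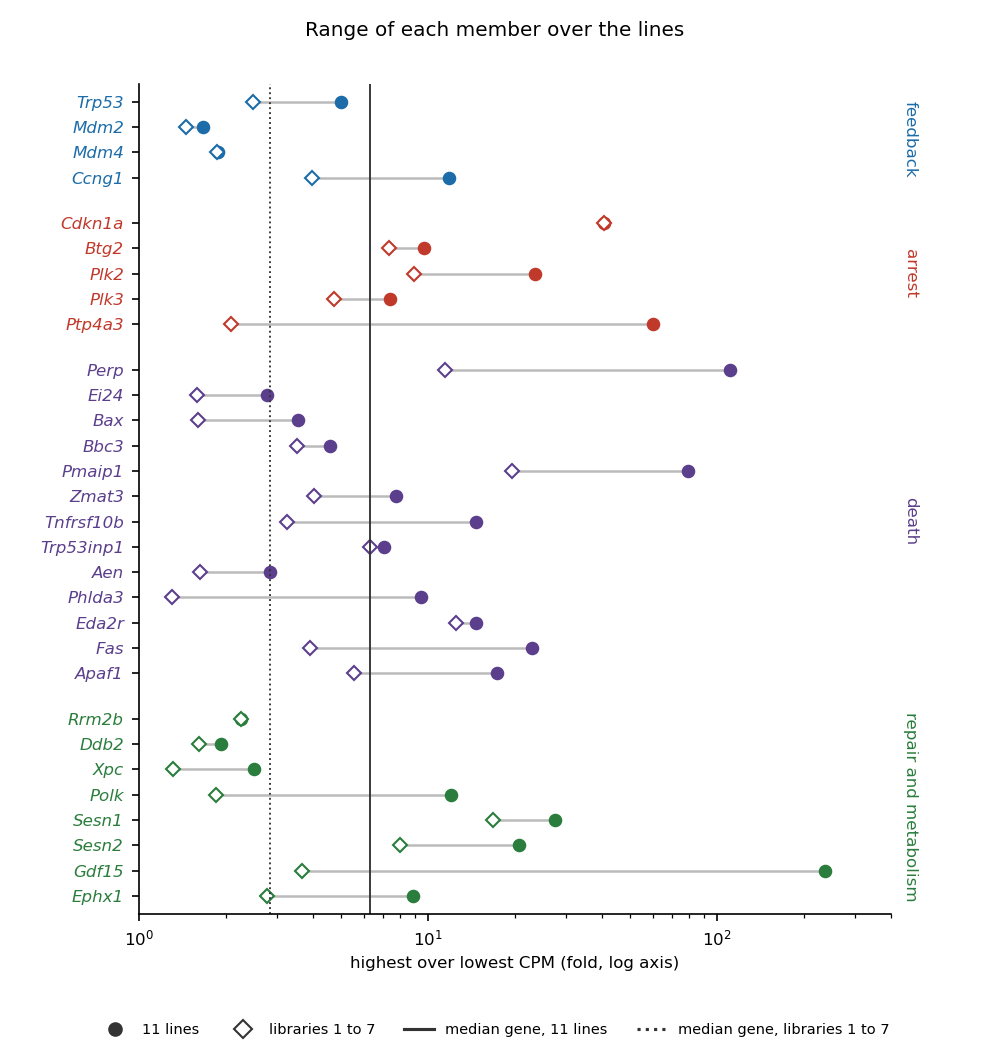
Highest over lowest CPM of each member over the 11 lines (filled circles) and within libraries 1 to 7 (open diamonds), on a log axis, with the median gene as a solid and a dotted line. The symbols coincide for Cdkn1a at 40.8-fold and lie far apart for Ptp4a3, Phlda3, and Gdf15.

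Within libraries 1 to 7, F326 ROV and F361 were together the lowest lines for 12 of 30 members, while they were the lowest pair for 16.1% of the genes tested. The 12 were Cdkn1a and Plk2 of the arrest targets, Bax, Bbc3, Pmaip1, Tnfrsf10b, Trp53inp1, Eda2r, and Fas of the death targets, and Xpc, Sesn1, and Sesn2. No feedback gene was among them. The same lines were together the highest of libraries 1 to 7 for Ccng1, Ei24, Aen, Polk, and Ephx1. The gap between the higher of the pair and the lowest of the other 5 lines was widest for Cdkn1a (7.87-fold). It was 2.91-fold for Eda2r, 1.66-fold for Plk2, and 1.42 to 1.52-fold for Tnfrsf10b, Sesn1, and Trp53inp1. For Fas, Bax, Sesn2, Bbc3, and Xpc it was slight, at 1.04 to 1.13-fold. The next pair, F326 splenic tumor and F364 LOV, was lowest for 4 members and 7.37% of genes. This pattern was noticed in the values, so it is a description without a test. F326 ROV and F361 also had the highest shares of muscle fiber counts of the 11 libraries (15.97 and 16.5%), and the part of these counts in the pattern was not tested. With the muscle fiber genes left out of the total the pair was lowest for 12 members and 14.8% of genes, and with TMM-scaled totals for 10 members and 13.8% of genes. F326 ROV and F361 came from different mice. Of the 12 members, the other line of mouse F326, the splenic tumor, was next lowest after the pair for Plk2 and Tnfrsf10b only.

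Differences between the library sets were tested across all genes with the quasi-likelihood test of edgeR on TMM-normalized counts. The boundary between the sets was chosen from these same counts, so the calls describe a split already seen. Of 15954 genes, 9337 (58.5%) had a Benjamini-Hochberg adjusted p under 0.05, with 29.9% higher and 28.6% lower in libraries 1 to 7. Among the members, 23 of 30 were called, 12 higher and 11 lower. By role, 2 feedback genes were higher and 1 lower, 3 arrest targets were higher and 1 lower, 5 death targets were higher and 5 lower, and 2 repair and metabolism targets were higher and 4 lower. With the mouse of each line as a block, where F318 and F319 are the mice with a line in each set, 3028 genes (19.0%) and 7 members were called, 4 higher (Ccng1, Ptp4a3, Phlda3, and Xpc) and 3 lower (Tnfrsf10b, Polk, and Gdf15). The median log2 difference without the block was 0.36 over the members and -0.03 over all genes. Of the 7 mice, 4 gave 2 lines each, and lines of one mouse are not independent, so p-values without the block measure the spread between these lines only.

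The largest differences toward libraries 1 to 7 were those of Perp (log2 difference 4.68 ± 1.14 SE, edgeR adjusted p = 0.0042), Ptp4a3 (4.67 ± 0.43, adjusted p = 3.3e-05), Sesn1 (3.10 ± 0.88, adjusted p = 0.010), and Phlda3 (2.89 ± 0.27, adjusted p = 3.3e-05). Toward libraries 8 to 11 they were those of Gdf15 (-5.50 ± 0.79, edgeR adjusted p = 0.00019), Pmaip1 (-2.75 ± 1.01, adjusted p = 0.033), Tnfrsf10b (-2.24 ± 0.31, adjusted p = 0.00015), and Plk2 (-1.98 ± 0.45, adjusted p = 0.0029). Perp was under 3 counts in F318 LOV and F333 uterus, and Pmaip1 in F326 ROV and F361. Each passed the low-count filter through the set where it was high. Their folds are imprecise, and their rank and p-values are a description only. Cdkn1a was higher in libraries 1 to 7 by 2.52 ± 0.91 (edgeR adjusted p = 0.031), although its lowest lines were in that set. Trp53 was lower there by a log2 difference of -0.60 ± 0.23 (edgeR adjusted p = 0.043), and Mdm2 differed by 0.40 ± 0.22, which did not pass the threshold (adjusted p = 0.13). With the mouse as a block the calls of Perp (edgeR adjusted p = 0.052), Sesn1 (adjusted p = 0.21), Pmaip1 (adjusted p = 0.12), Plk2 (adjusted p = 0.080), Cdkn1a (adjusted p = 0.31), and Trp53 (adjusted p = 0.29) were lost, while their directions were kept. Leaving out 1 line moved the difference by over 1.5 times in fold for Perp (5.79 without F339 ROV), Gdf15 (-4.63 without F333 uterus), Pmaip1 (-3.89 without F364 LOV), and Cdkn1a (1.87 without F364 LOV).

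Of the 23 calls, 7 were kept under all 19 alternatives, those that also passed with the mouse as a block, and no called member changed direction in any. Btg2, Plk2, Perp, Zmat3, Aen, Apaf1, and Sesn2 lost their call with the block alone. With ovary lines only the calls of Trp53, Mdm4, Cdkn1a, Pmaip1, Ei24, Bax, Eda2r, Ephx1, and Sesn1 were lost, with library totals only those of Mdm4, Cdkn1a, and Ei24, and with lines of the same mouse summed, or with no filter on low counts, those of Trp53 and Mdm4. The call of Trp53 was lost when F364 ROV, F326 splenic tumor, F364 LOV, F326 ROV, F361, F319 ROV, F318 LOV, or F319 uterus was left out, and that of Cdkn1a without F364 LOV, F339 ROV, F318 LOV, or F333 uterus. That of Pmaip1 was lost without F364 ROV, the F326 splenic tumor, F319 ROV, F339 ROV, or F318 LOV, and that of Mdm4 without 1 of 8 lines (all but the F326 lines and F318 LOV). Fas, which was not called, passed the threshold without F339 ROV, and its direction changed in 6 of the 19 alternatives. Scaling to library totals moved the median of all genes from -0.03 to -0.40 on the log2 scale and the split of calls to 23.4% higher and 38.1% lower, and the members to 9 higher and 11 lower, with a median member at -0.0034. Without overlap in CPM of the library total were 12 of 30 members, 4 higher and 8 lower in libraries 1 to 7, against 43.1% of genes. This share of genes was not split by direction, and with library totals more of all calls were lower than higher in libraries 1 to 7. Among the 7 ovary lines alone, 14 members were called, 7 higher and 7 lower, against 40.7% of genes (22.1% higher and 18.6% lower). The muscle fiber share, the Y-linked counts, and the mesenchymal sum move with this split without overlap. Their part in the members' differences was not tested.

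Of the 9 members with a p53 half-site in a promoter window, 5 were higher in libraries 1 to 7 (Cdkn1a, Ccng1, Sesn1, Ei24, and Aen), 3 were lower (Trp53, Bax, and Polk), and Mdm2 did not pass the threshold. Of the 12 with a window and no motif, 4 were higher and 5 lower, and of the 9 without a window 3 were higher and 3 lower. Over all genes 29.9% were higher and 28.6% lower.

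Other genes of the pathway were listed by name. Among 16 upstream kinases, cofactors, regulators, and family members, 15 were tested, of which 2 were higher and 7 lower in libraries 1 to 7, a share near the 58.5% of all genes. Trp63, the p53 family gene of stratified epithelia, had a log2 difference of 3.04 ± 0.57 (edgeR adjusted p = 0.00085), and the checkpoint kinase genes Chek1 and Chek2 had differences of -2.66 ± 0.42 (adjusted p = 0.00033) and -2.10 ± 0.35 (adjusted p = 0.00041). Cdkn2a, the locus of Ink4a and of Arf, the inhibitor of Mdm2, was at 21.8 to 88.0 CPM in libraries 1 to 7 and at 323, 253, 284, and 124 CPM in libraries 8 to 11, a difference of -1.82 ± 0.39 (edgeR adjusted p = 0.0020). Among 9 other targets, 8 were tested, of which Tigar, a regulator of glycolysis (2.63 ± 0.39, edgeR adjusted p = 0.00024), and Triap1 (0.71 ± 0.23, adjusted p = 0.020) were higher, and Pidd1 (-1.01 ± 0.38, adjusted p = 0.035) was lower. Gadd45a, a growth arrest gene, was at 23.0 to 114 CPM and 31.5 to 106 CPM in the sets and did not pass the threshold (0.82 ± 0.44, edgeR adjusted p = 0.13). Trp73 and Rprm were too low to be tested. With the mouse as a block the calls of Chek2 (edgeR adjusted p = 0.076), Cdkn2a (adjusted p = 0.15), Triap1 (adjusted p = 0.45), and Pidd1 (adjusted p = 0.18) were lost, and those of Trp63, Chek1, and Tigar were kept. Without F339 ROV or F318 LOV the call of Triap1 was lost as well, and that of Pidd1 without F326 ROV, F361, F319 ROV, F318 LOV, or the F319 uterus line.

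**Figure D4:**
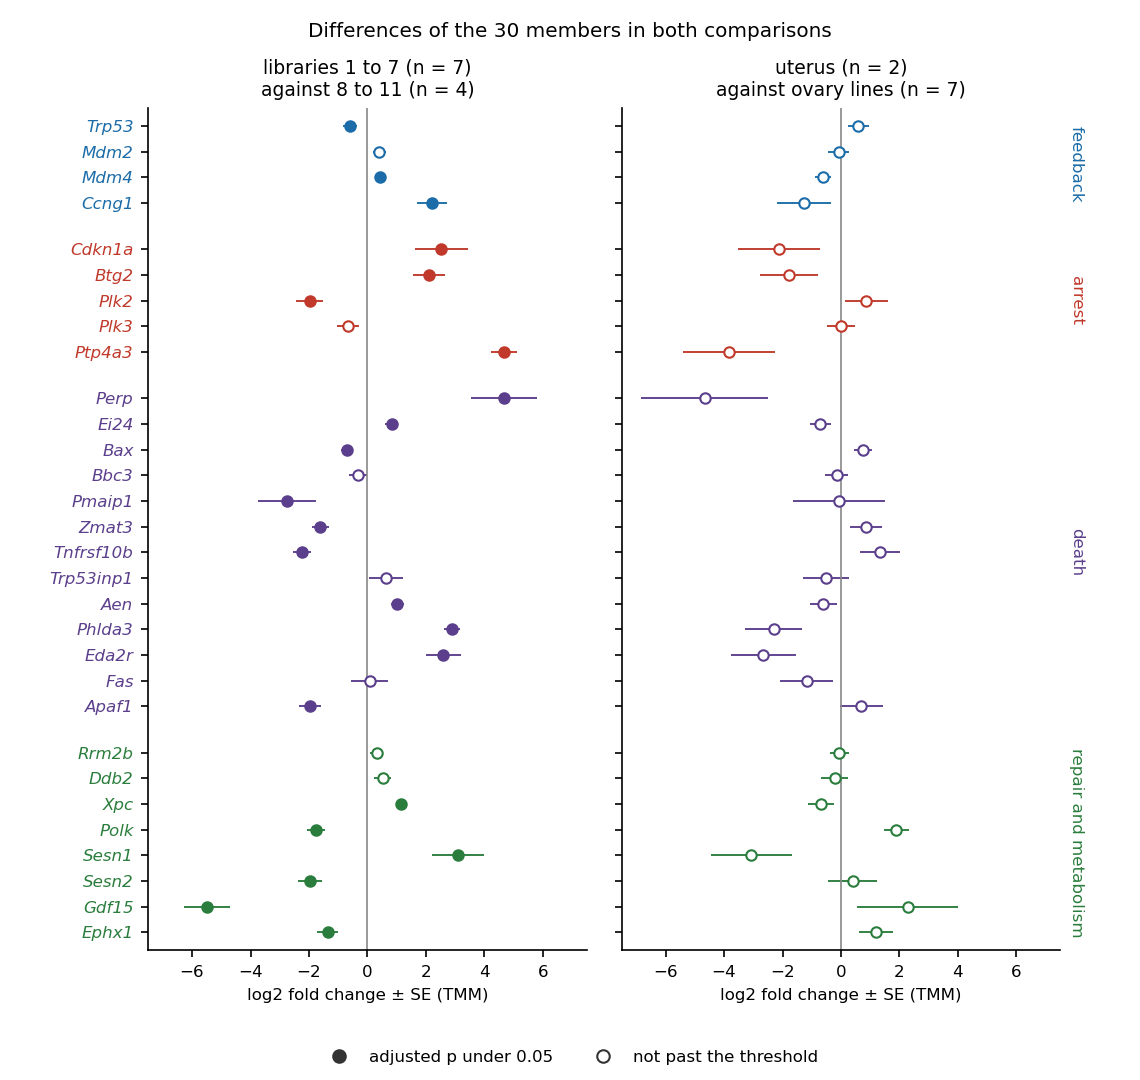
Log2 fold change with its SE for each member between libraries 1 to 7 (n = 7) and 8 to 11 (n = 4), and between uterus (n = 2) and ovary lines (n = 7), from edgeR with TMM. Filled symbols passed an adjusted p of 0.05: 23 members in the first panel and none in the second.

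Uterus lines were compared with ovary lines to ask whether the pathway differed by the organ a line was taken from. In the F319 and F333 uterus lines Cdkn1a was at 87.7 and 31.6 CPM, inside the ovary range of 16.3 to 664 CPM, and Trp53 was at 52.0 and 24.0 CPM against 10.4 to 33.9 CPM. Mdm2 was at 68.0 and 114 CPM against 70.6 to 109 CPM, so that the uterus lines lay on either side of the ovary lines. With edgeR, 0 of 17446 genes (0.0%) and 0 of 30 members passed an adjusted p of 0.05. At an unadjusted p under 0.05 there were 2308 genes (13.2%) and 6 members, and DESeq2 called 1293 genes (4.65%) and 3 members. With the mouse as a block edgeR called 0 genes, with 2 members and 8.6% of genes at an unadjusted p under 0.05.

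The 6 members were Polk (log2 difference of uterus from ovary 1.90 ± 0.42), Bax (0.74 ± 0.31), Eda2r (-2.66 ± 1.11), Ptp4a3 (-3.83 ± 1.58), Phlda3 (-2.30 ± 0.98), and Mdm4 (-0.62 ± 0.26), all with an edgeR adjusted p of 0.36. Polk reached 58.8 and 32.6 CPM in uterus and 4.87 to 22.7 CPM in ovary lines, Mdm4 at 40.8 and 41.3 against 43.8 to 76.9 CPM, and Tnfrsf10b at 37.3 and 40.1 against 3.20 to 35.7 CPM. These 3 of 30 were the members whose groups did not overlap, against 8.04% of genes. The call of DESeq2 went to Polk, Ptp4a3, and Perp.

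Both uterus lines are in libraries 8 to 11, next to 2 of the 7 ovary lines. Within those libraries, 0 of 15566 genes (0.0%) were called, with 3 members and 3.35% of genes at an unadjusted p under 0.05. The difference changed sign for 15 of the 30 members, against 43.5% of the genes in both fits. Ptp4a3 went from -3.83 to 0.52, Cdkn1a from -2.11 to 0.45, Phlda3 from -2.30 to 0.17, and Mdm2 from -0.08 to 0.25 on the log2 scale. With the library set as a covariate 0 genes were called as well, with 1 member and 4.85% of genes at an unadjusted p under 0.05, and the sign changed for 15 members and 42.9% of genes. In counts simulated for the comparison without block or covariate, 12% of genes changed 4-fold and 68% of those changed 16-fold were found.

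Lines of the same mouse share a genotype and a host and were compared by a 2-fold rule on CPM, with no replicate check. In F364, whose lines are both in libraries 1 to 7, 5 of 30 members were past 2-fold, against 14.3% of genes. In the left over the right ovary line, Cdkn1a was 2.29-fold (95% counting interval 2.21 to 2.37), Pmaip1 10.3-fold (4.56 to 23.3, from 62 and 6 counts), and Ephx1 2.48-fold. Perp was 8.62-fold and Eda2r 2.47-fold higher in the right ovary line. Mdm2 and Trp53 were within 2-fold.

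In F326, also within libraries 1 to 7, 9 members were past 2-fold, against 32.0% of genes. Cdkn1a was 12-fold higher in the splenic tumor line than in the right ovary line (10.6 to 13.7), Sesn1 11-fold (10.1 to 11.9), Eda2r 7.49-fold, Trp53inp1 5.09-fold, Fas 2.43-fold, and Btg2 2.23-fold. Pmaip1 was at 10 counts against 0, which is 3.16-fold with 0 set to 3 counts. Perp was 3.54-fold and Ccng1 2.50-fold higher in the right ovary line. No arrest, death, or repair target other than Perp was past 2-fold toward the ovary line.

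The pairs of F318 and F319 cross the library split, so that line and library set cannot be told apart. In F318, 17 members were past 2-fold (8 higher and 9 lower in the left ovary line), against 45.0% of genes. Higher were Gdf15 (31.9-fold), Pmaip1, Ephx1, Tnfrsf10b, Plk2, Polk, Sesn2, and Apaf1, and lower were Perp (at least 52.3-fold), Ptp4a3 (28.8-fold), Sesn1 (12.7-fold), Fas (12.3-fold), Phlda3, Cdkn1a (4.57-fold), Eda2r, Btg2, and Ccng1. In F319, 19 members were past 2-fold (12 higher and 7 lower in the uterus line, or 11 and 8 with TMM-scaled totals), against 55.5% of genes. Higher were Pmaip1 (21.7-fold, from 158 and 6 counts), Polk (7.17-fold), Tnfrsf10b, Ephx1, Gdf15, Trp53inp1, Sesn2, Bax, Apaf1, Zmat3, Plk2, and Trp53 (2.25-fold), and lower were Ptp4a3 (23.9-fold), Perp (16.3-fold), Phlda3 (8.84-fold), Eda2r (7.79-fold), Ccng1 (5.07-fold), Fas, and Ei24. Cdkn1a was within 2-fold in F319, at 87.7 and 134 CPM. With TMM-scaled totals Trp53 fell within 2-fold in F319, and Xpc was past 2-fold toward F319 ROV.

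On library totals, Mdm2 and Mdm4 were within 2-fold in all 4 pairs, as were Plk3, Bbc3, Aen, Rrm2b, Ddb2, and Xpc. These were 8 of 30 members, against 25.0% of genes. With TMM-scaled totals Xpc was past 2-fold in F318 and F319. Perp, Pmaip1, and Eda2r were past 2-fold in every pair, 3 of 30 members against 4.21% of genes. Perp was higher in the right ovary line each time and Pmaip1 lower there each time, while Eda2r was higher in the right ovary line in 3 pairs and lower there in F326. Cdkn1a was past 2-fold in 3 pairs, higher in the left ovary line of F364 and the splenic line of F326 and lower in the left ovary line of F318.

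**Figure D5:**
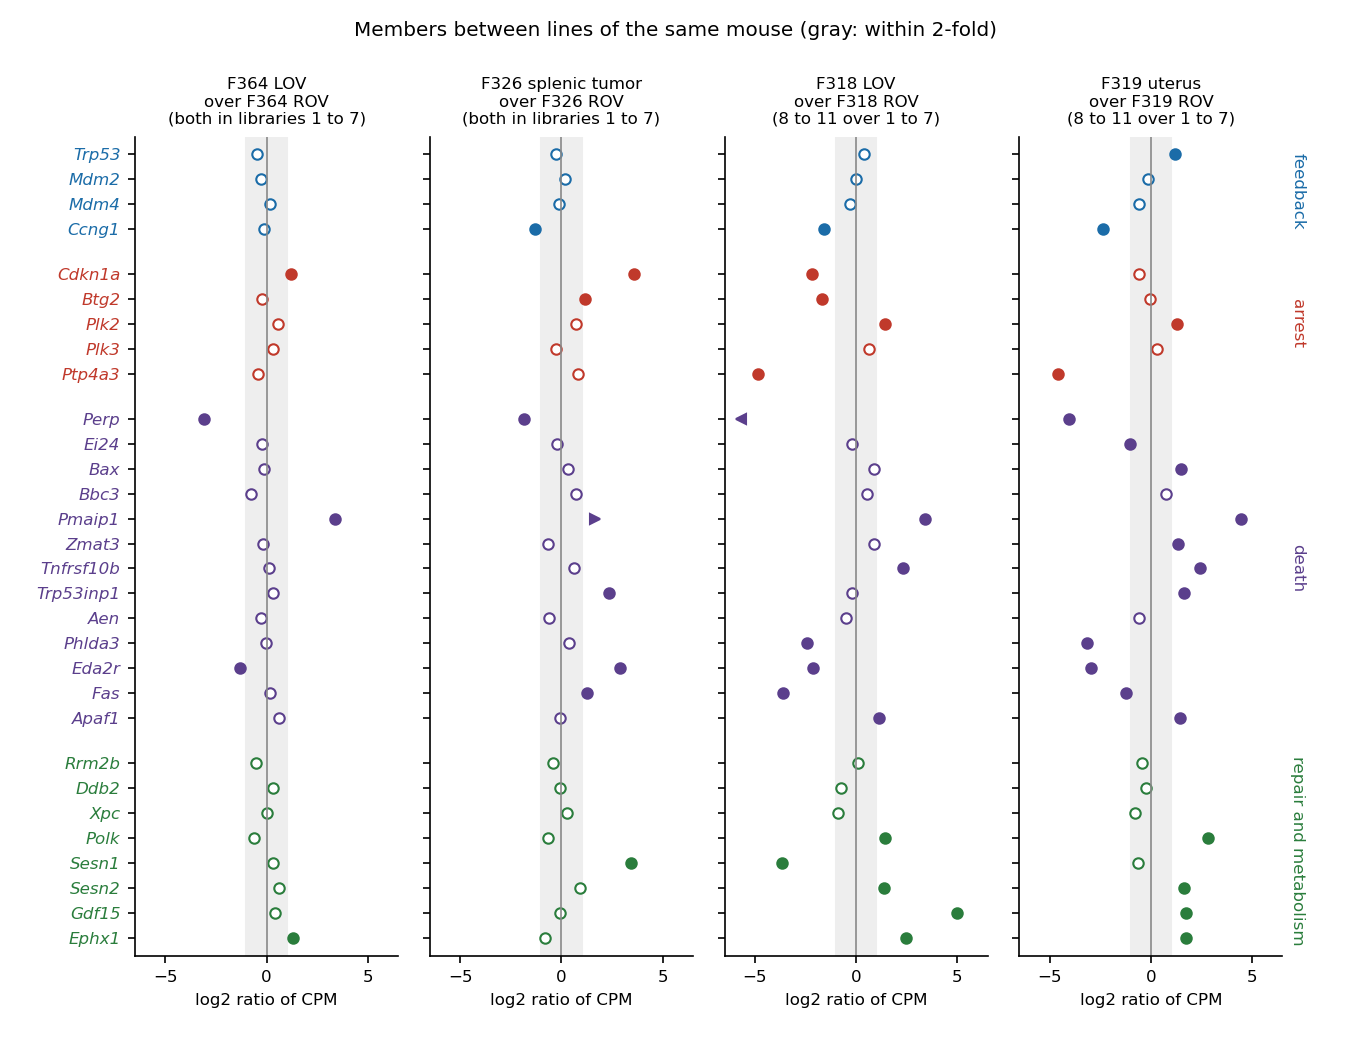
Log2 ratio of CPM for each member between the lines of a mouse, with the 2-fold band in gray and arrowheads for ratios that are bounds against 3 counts. Cdkn1a, Sesn1, and Eda2r lie to the right for F326, and Ptp4a3 and Phlda3 lie to the left in both pairs that cross the library split.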

How the data were processed

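Bulk RNA-seq of 11 OvTrpMyc lines was deposited by the authors as raw counts per gene, 1 column per line. The authors extracted polyadenylated RNA, prepared directional libraries, aligned reads to GRCm38 (Ensembl release 86) with STAR, removed duplicates with SAMtools, and counted with featureCounts. Removing duplicates can lower the counts of highly expressed genes, and the strand setting is not given in the sources used here.

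Here, organs and library numbers were taken from the labels. Counts were tested in edgeR 4.0.16 (R 4.3.3) with TMM, filterByExpr, the quasi-likelihood test, and Benjamini-Hochberg adjustment over all genes tested, at an adjusted p of 0.05. The comparisons were uterus against ovary lines and libraries 1 to 7 against 8 to 11, the latter a split by library number seen in earlier work on these data. DESeq2 1.42.0 was an alternative. CPM used library totals (13580525 to 27044598 counts), and RPKM used the annotated exon length of GENCODE M21. Intervals (Wilson, 95%) and the floor of 3 counts cover counting error only, since reads carried no molecular identifiers. The mouse of each line (from the labels) as a block, library totals only as a scaling, and the 2 other scalings of the lowest pair were chosen after seeing the data. Half-sites were 10-base matches on both strands in RefSeq windows on GRCm38.p6.

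The members and lists were chosen with earlier results of these data known. Members named with values in every line were Trp53, Mdm2, Cdkn1a, the members of widest and narrowest range per role, and those of largest difference. The scripts were tested on simulated data: the uterus design found 12% of genes changed 4-fold and 68% of those changed 16-fold, and the library design found 76% and 100%.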

Additional observations from a re-analysis of the deposited data

How the results depend on the processing

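Between uterus and ovary lines, edgeR called 0 genes, DESeq2 called 1293 genes and 3 members, a table with no filter on low counts gave 2 genes, and leaving out 1 line at a time gave 0 to 1 gene. Between libraries 1 to 7 and 8 to 11, the 23 members called became 7 with the mouse as a block (3028 genes), 14 with ovary lines only, 20 with library totals only, and 20 to 22 without 1 line (8526 to 9311 genes). The 22 members over a 4-fold range became 12 in libraries 1 to 7 only. The sign of the uterus difference changed under at least 1 of 18 alternatives for 19 of 30 members, most often for Plk3 (11 alternatives), none of them called by edgeR. Among the members named for that comparison these were Mdm2 (-0.08 on the log2 scale; 0.10 with library totals only, 0.013 with lines of the same mouse summed, 0.30 with the library set as a covariate, 0.25 within libraries 8 to 11, and -0.61 to 0.34 without 1 line) and, with the covariate and within libraries 8 to 11, those of Cdkn1a (0.51 and 0.45), Ptp4a3 (0.57 and 0.52), and Phlda3 (0.22 and 0.17). Without F333 uterus, Mdm2 passed the threshold between the library sets (0.63, edgeR adjusted p = 0.025), and with ovary lines only Sesn1 did not (2.76, adjusted p = 0.085). The cause of these changes was not tested. Replicate numbers were given in accession order and pair no samples, so lines were paired by mouse alone. The mouse block rests on the mice with lines on both sides, F318 and F319 for the library sets and F319 for uterus and ovary, where it gave 0 genes. Counts of Gdf15, Pmaip1, and Perp under 10 in several lines limit the precision of their folds.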
